A study of Mus musculus with 3 samples.

Results

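Mouse CD8 T cells, activated with CD3 and CD28 stimulation and cultured in cytokines for Tc1 differentiation, were profiled on arrays after culture with 0.75 µg/ml cholesterol and with none (control). The members were taken by label as the 2 arrays of these conditions, out of 3 arrays in the series. The other array, from cells given 0.5 µg/ml, is quoted beside them as a level only. Every condition shared the stimulation and the Tc1 cytokines, and differed in the labels only by cholesterol. The labels do not give strain, age, number of animals, length of exposure or the carrier of the cholesterol, so carrier and cholesterol cannot be told apart. With 1 array per condition no test was possible, no replicate error can be given, and precision is limited by this number of arrays.

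Cells sense membrane cholesterol through the SREBP transcription factors, which the proteins SCAP and INSIG hold in the endoplasmic reticulum when sterol is plentiful. Released SREBP turns on genes of sterol and fatty acid synthesis and of lipoprotein uptake. Oxysterols made from surplus cholesterol activate the nuclear receptor LXR, which pairs with RXR and turns on cholesterol exporters. In dividing CD8 T cells this balance is known to bear on membrane supply and effector function.

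Of 19505 genes with a named transcript probe set, 7927 were detected, meaning that the control or the 0.75 µg/ml array reached 102, the highest 95th percentile of the negative-control probe sets over the 3 arrays. The other 11578 genes were under that level on both and are called not detected. A gene dim on 1 of both arrays enters only through its brighter array, so counts over detected genes describe these arrays and support nothing further. Values are linear intensities, and differences are log2 of the 0.75 µg/ml array minus log2 of the control array. Where 1 array was under 102, its value was raised to 102 to give a lower bound, written as "at least" a fold. In what follows, 3 intensities given together are in the order control, 0.5 µg/ml and 0.75 µg/ml.

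T cell identity was clear on both arrays and other lineages were near background. All 9 measured T cell markers were detected, with summed intensities of 20485 without cholesterol and 19352 at 0.75 µg/ml. Cd8a was at 4225, 4164 and 3313 and Cd8b1, which encodes the partner chain of the CD8 coreceptor, at 2574, 2621 and 2030.0. Both CD8 chains were thus lowest at 0.75 µg/ml, by -0.35 and -0.34 on the log2 scale, and Cd3e was at 4364, 4650.1 and 4594. Among markers of macrophages, dendritic cells and monocytes, 0 of 13 were detected, and their summed intensity was 204 without cholesterol and 229 at 0.75 µg/ml. Of 11 B cell markers 1 was detected, Cd79b at 111, 100.3 and 105, and their sum was 386 against 363. Among neutrophil and mast cell markers Kit alone of 13 was detected, at 133, 88.3 and 42.4, and 0 of 7 erythroid and platelet markers were. Of 5 CD4 T cell markers Zbtb7b was detected at 178, 235 and 209, while Cd4 itself was at 61.6, 39.4 and 35.7, under the negative controls' level. In bulk RNA, fewer cells of a type and less RNA per cell cannot be told apart.

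The high dose went with a lopsided difference, much of it in lower transcripts. Of the detected genes, 134 were at least 2-fold lower than the control (1.69%) and 24 were at least 2-fold higher (0.303%). Of these, 72 of the lower and 11 of the higher genes were bright on both arrays, and 62 lower genes were under 102 at 0.75 µg/ml. With dim values raised to 102, 98 genes were at least 2-fold lower (1.24%) and 15 at least 2-fold higher (0.189%), and 13 lower genes but 0 higher genes reached 4-fold. At 1.5-fold the counts were 356 lower (4.49%) and 147 higher (1.85%). All 158 genes past 2-fold are protein-coding in the reference table. Around the fold used, the nearest lower genes lay at 2.001-fold inside and 1.98-fold outside, and the nearest higher genes at 2.02-fold and 1.99-fold.

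Positive-control probe sets, which are not genes of interest, give a yardstick between the same arrays. Of 1015 such probe sets above 102, 1 was at least 2-fold lower (0.0985%) and 4 at least 2-fold higher (0.394%). The share of genes at least 2-fold higher, 0.303%, was therefore no larger than that of the positive controls, while the lower share of 1.69% was. Genes and controls were not matched by brightness, and the control shares rest on few probe sets. The SD of the log2 difference was 0.36 over detected genes and 0.27 over these controls, with medians of 0.00 and 0.06. Lower genes were found at every level of brightness. In the dimmest of 5 equal bins of detected genes 52 were at least 2-fold lower and 14 higher, and in the brightest bin, from a mean intensity of 725 up, 14 were lower and 2 higher. Identical values on both arrays were found for 125 detected genes (1.58%).

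**Figure D1:**
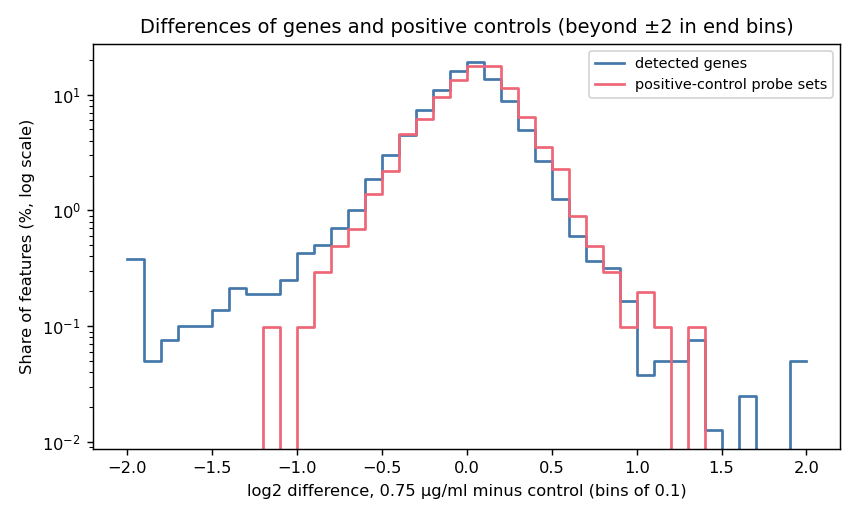
Share of detected genes (blue) and of positive-control probe sets (red) by log2 difference between the 0.75 µg/ml and control arrays, in bins of 0.1 with a log scale for the share and values beyond 2 gathered in the end bins. The lines run close together on the right apart from a few genes past 1.5, and on the left the genes extend past the controls, with 1.69% of genes and 0.0985% of controls at least 2-fold lower.

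Beside this, the 0.5 µg/ml array had 1 detected gene at least 2-fold lower than the control (0.0127% of 7873) and 3 higher (0.0381%). Both doses are set against the same control array, so their differences are not independent of each other.

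Genes for making sterols were the lowest group. Of 20 listed sterol synthesis enzymes 16 were measured and detected, 15 of them at least 2-fold lower, with a median log2 difference of -1.82 against 0.00 over all detected genes. From the entry of the pathway, Hmgcs1, which makes HMG-CoA, was at 1848, 1295 and 285, and Idi1, the isomerase that supplies the isoprenoid unit for chain growth, was at 511, 332 and 101. Both were lower at 0.5 µg/ml and much lower at 0.75 µg/ml, where Hmgcs1 was 6.49-fold lower and Idi1 at least 5.02-fold lower. The mevalonate kinases were dimmer, with Mvk at 155, 177 and 67.3 and Pmvk at 216, 159 and 103.

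At the branch into sterols, Fdft1, which encodes squalene synthase, was at 1618, 937 and 417, 3.88-fold lower than the control. Lanosterol synthase (Lss) was at 1126, 779 and 449. Cyp51, which removes a methyl group from lanosterol, was at 964, 678 and 210.4, 4.58-fold lower. Fdft1, Lss and Cyp51 all stayed above 102 at the high dose. The later steps were lower as well, with Nsdhl at 1259.6, 890.3 and 428, Hsd17b7 at 321, 206 and 100.3, Sc5d at 1234, 948 and 506 and Dhcr7, which makes the last reduction to cholesterol, at 951, 619 and 337. Their order on the 3 arrays was the same, with the 0.5 µg/ml value between the other 2. Ebp, the sterol isomerase, was at 556, 521 and 561 and is the one measured enzyme that was not lower. Outside the list, Acat3, a cytosolic thiolase, was at 197, 156 and 68.7, and Idh1, an isocitrate dehydrogenase that makes NADPH, at 103, 88.7 and 40.9. Both were under 102 at the high dose, with bounds of at least 1.93-fold and 1.01-fold. Idh1 was thus close to background on the control array too.

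Sterol sensing split into members far below the control and members near it. Of 12 detected genes of sterol sensing and uptake 4 were at least 2-fold lower, and the median was -0.18. Insig1 was at 779, 605 and 176 and Srebf2, which encodes SREBP2, at 2759, 2304 and 1188. Stard4, a sterol carrier of the cytosol, was at 522, 478 and 207 and Npc2, which hands cholesterol on within lysosomes, at 596, 442 and 232. These 4 were lowest at 0.75 µg/ml. By contrast Scap was at 836, 789 and 931, the site-1 protease gene Mbtps1 at 404, 394 and 414, the lysosomal transporter Npc1 at 233, 243 and 206 and the lipoprotein receptor Scarb1 at 417, 377 and 368, each within 0.27, the SD of the positive controls.

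Promoter windows from RefSeq (GRCm38.p6), each 300 bases with 50 after the transcription start, were searched for known motifs on both strands. Of the 158 genes at least 2-fold different, 124 had an entry, 106 lower genes with 151 windows and 18 higher genes with 24. A match describes letters and is not shown to be a site. The core of the sterol regulatory element, TCACNCCAC, was in 5 of the 151 windows of lower genes (3.31%), in 0 of the 24 of higher genes, in 1.15% of 8314 windows of detected genes and in 1.24% of all 32851 windows. Its genes were Aldoc, Hmgcs1, Ndrg2, Dlg3 and Cnn3. Within the lipid lists it was in 1 of 16 windows of the sterol synthesis enzymes, in 0 of 13 of sterol sensing and uptake and in 0 of 14 of fatty acid synthesis. The 250 bases before the start are shown for Hmgcs1 and Aldoc, the lowest of these genes, with the match in capitals. Hmgcs1 lies on the plus strand, chr13:119690101-119690350, with the match beginning 137 bases before the start, and Aldoc on the plus strand, chr11:78322823-78323072, with the match 80 bases before it.
Hmgcs1: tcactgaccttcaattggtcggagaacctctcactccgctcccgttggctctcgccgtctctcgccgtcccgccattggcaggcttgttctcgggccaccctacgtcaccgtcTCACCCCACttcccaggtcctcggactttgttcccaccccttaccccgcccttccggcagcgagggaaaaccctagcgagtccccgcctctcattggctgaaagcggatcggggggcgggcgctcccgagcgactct
Aldoc: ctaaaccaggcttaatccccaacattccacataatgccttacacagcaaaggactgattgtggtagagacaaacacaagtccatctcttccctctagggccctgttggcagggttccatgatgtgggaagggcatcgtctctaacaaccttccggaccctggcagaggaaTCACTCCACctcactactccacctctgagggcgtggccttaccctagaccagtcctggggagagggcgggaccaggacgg
The CCAAT box (CCAAT), bound by NF-Y, was in 13 of 16 windows of the sterol synthesis enzymes and in 38.5% of windows of detected genes. The GC box (GGGCGG) was also in 13 of these 16, against 63.9%.

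By measured intensity Fads2 and Aldoc stood furthest below the control of all detected genes, though with dim values raised Tgm2, described further on, passed Aldoc. Aldoc, an aldolase, was at 688, 555 and 51.2, at least 6.76-fold lower. Fads2, the first desaturase of polyunsaturated fatty acid synthesis, was at 1548, 1016 and 72.4, at least 15.2-fold lower, and its chromosomal neighbour Fads1 was at 572, 447 and 281. Both desaturases and Aldoc were lower at 0.5 µg/ml and lower again at 0.75 µg/ml. Of 15 detected fatty acid synthesis genes 13 were below the control and 4 at least 2-fold lower, with a median of -0.42. Slc25a1, which exports citrate from mitochondria, was at 1569, 1167 and 614 and the elongase Elovl6 at 1574, 1393 and 667. The stearoyl-CoA desaturase Scd1 was at 368, 399 and 215 and acetoacetyl-CoA synthetase (Aacs) at 429, 309 and 247. Core enzymes differed less, with ATP citrate lyase (Acly) at 956, 808 and 714, acetyl-CoA carboxylase (Acaca) at 292, 271 and 243 and fatty acid synthase (Fasn) at 698, 601 and 622.

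Other membrane and storage lipid genes went both ways. Of 26 detected sphingolipid and phospholipid enzymes 14 were below and 12 above the control, none 2-fold, with a median of -0.02. Acid ceramidase (Asah1) was at 218, 244 and 120.1 and Pcyt2, of phosphatidylethanolamine synthesis, at 810.4, 666 and 479.9. Lipin (Lpin1), which makes diacylglycerol, was at 422, 330.0 and 247, while Degs1, which makes ceramide from dihydroceramide, was at 1335, 1518 and 1824 and phosphatidylserine synthase Ptdss1 at 267, 335 and 368. In the droplet and oxidation list 9 of 14 detected genes were below the control. The droplet protein gene Plin2 was at 491, 401 and 348, Hilpda, a lipase inhibitor, at 309, 385 and 182 and the lysosomal lipase Lipa at 306, 254 and 205.

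The cholesterol exporter genes Abcg1 and Abca1 were among the 24 genes at least 2-fold higher by measured intensity, while Abca7 and Abcg4 were not detected. Abcg1 was at 135, 280.4 and 431, 3.2-fold higher, the largest upward difference among detected genes once dim values were raised. Abca1 was at 16.5, 32.6 and 162 and Rxra, the partner of LXR, at 36.0, 53.5 and 172, and both were detected at 0.75 µg/ml only. Mylip, whose product degrades the LDL receptor, was at 94.0, 134 and 172. By measured intensity these 4 genes stood in the order of dose, but of them only Abcg1 was above background on every array. Mylip was under background on the control array only. Abca1 and Rxra were under it at the lower dose as well as on the control array, so no step between those arrays is read for them. Lpcat3, a phospholipid remodelling enzyme, followed the order of dose by a small amount, at 1449.9, 1498 and 1665. Other members were lower, with Pltp at 206, 157 and 129 and Smpdl3a at 197, 223 and 105. Over its 9 detected genes the list's median was 0.20, and over those detected on both arrays it was -0.08, so the list has no single direction. Apart from Abca1 and Abcg1, none of the 20 detected ABC transporters differed 2-fold. The multidrug exporter Abcb1b was at 229.9, 217 and 328.

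**Figure D2:**
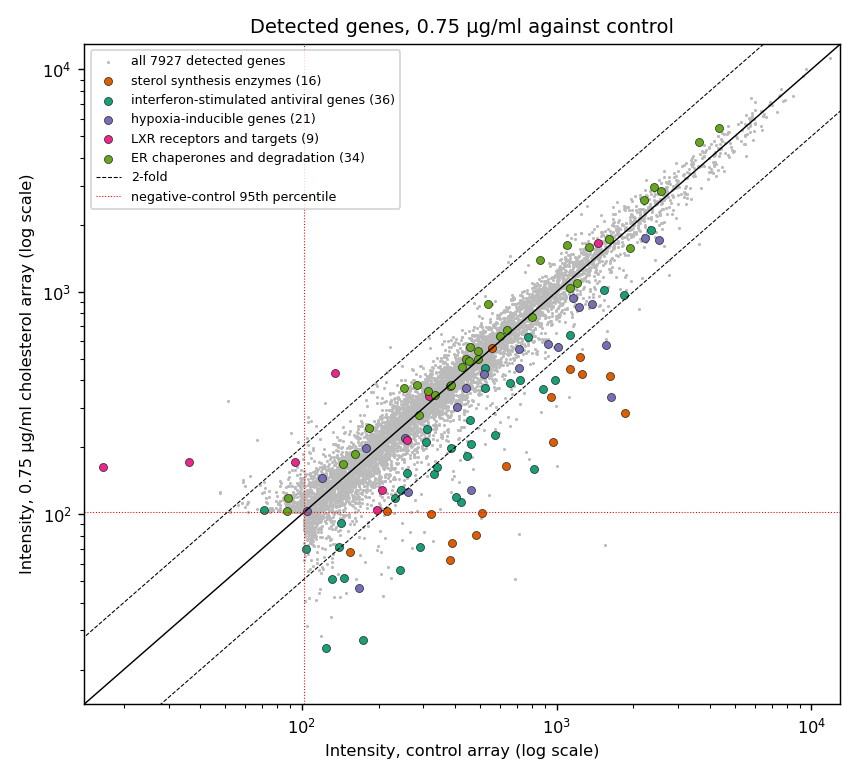
Intensity of each detected gene on the control array (x) and the 0.75 µg/ml array (y), both on log scales, with 5 groups in colour, the line of equality, 2-fold lines and the negative controls' 95th percentile of 102. Sterol synthesis enzymes (15 of 16) lie under the lower 2-fold line, and ER chaperones lie near or just above equality.

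Antiviral genes driven by interferon included 16 genes at least 2-fold lower among 36 detected members, or 12 with dim values raised to 102, where sterol synthesis had 15 and 14 of 16. Of the 36, 35 were below the control, with a median of -0.96, or -0.81 with dim values raised to 102. The exception was Mx1, at 70.8, 89.8 and 105, which was under 102 without cholesterol. Ifi27l2a, a mitochondrial protein gene, was at 813, 758 and 160.2, and Usp18, which removes ISG15 and dampens interferon receptor signalling, at 421, 428 and 113. Xaf1 was at 402, 365 and 119. All 3 were close to the control at 0.5 µg/ml and far below it at 0.75 µg/ml.

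RNA sensors were also lower at 0.75 µg/ml, and Dhx58 was lower at 0.5 µg/ml too. Dhx58 was at 291, 226 and 70.8, Ifih1 at 463, 430.4 and 206 and Ddx58, the RIG-I gene, at 245, 249 and 128. Tlr7, a receptor for single-stranded RNA that is outside the list, was at 247, 253 and 91.4. The oligoadenylate synthetase gene Oas3 was at 446, 399 and 183, and the Schlafen genes Slfn1 and Slfn8 at 572, 493 and 228 and at 331, 314 and 152. Among abundant members, the tetherin gene Bst2 was at 1845, 1587 and 964 and the nuclear body gene Sp100 at 2355, 2324 and 1894, so the size of the difference varied widely within the group. Isg15, Rsad2 and Oas1a, among other classical members, were not detected on either array.

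Several of these genes sit next to each other. Among detected genes in reference order, 7 runs of neighbours were at least 2-fold lower together by measured intensity and no run of higher genes was found. On chromosome 1 the DNA-sensor family genes Ifi213, Ifi209 and Ifi208 were at 541, 543 and 121, at 755, 784 and 190.4 and at 271, 259 and 70.7. On chromosome 19 the run held Ifit3, Ifit1bl1 and Ifit3b, with Ifit3 at 242, 214 and 56.4. Pairs were Ifi27l2a and Ifi27 on chromosome 12, Phf11a and Phf11b on chromosome 14, Trim30a and Trim30d on chromosome 7, H2-DMa and H2-DMb2 on chromosome 17, and Fads1 and Fads2 on chromosome 19. Neighbours in these families are similar in sequence, and probe sets may share signal between them.

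The interferon-stimulated response element, written TTTC, any 2 bases, TTTC, was in 23 of 151 windows of genes at least 2-fold lower (15.2%), in 0 of 24 of higher genes, and in 3.2% of windows of detected genes. Over the antiviral list it was in 14 of 37 windows. These windows are not all independent, as Ifit1bl1 and Slfn8 each entered with more than 1 matching window. The windows of Ifit3 and Ifit3b, among other neighbours, hold nearly the same bases. The gamma-activated site, TTCNNNGAA, was in 7.28% of windows of lower genes and in 6.98% of those of detected genes. The 250 bases before the start are shown for genes from different families with the response element in capitals: Ifit3 on the plus strand, chr19:34583279-34583528, Ifi213 on the minus strand, chr1:173599273-173599522, and Oas3 on the minus strand, chr5:120777660-120777909. Ifit3 holds 2 matches, and Ifi213 and Oas3 hold 1 each on the other strand.
Ifit3: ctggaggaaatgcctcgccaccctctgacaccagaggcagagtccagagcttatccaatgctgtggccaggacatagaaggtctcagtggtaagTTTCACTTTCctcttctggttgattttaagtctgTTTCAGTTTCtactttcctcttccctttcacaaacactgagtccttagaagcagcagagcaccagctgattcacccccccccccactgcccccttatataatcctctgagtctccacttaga
Ifi213: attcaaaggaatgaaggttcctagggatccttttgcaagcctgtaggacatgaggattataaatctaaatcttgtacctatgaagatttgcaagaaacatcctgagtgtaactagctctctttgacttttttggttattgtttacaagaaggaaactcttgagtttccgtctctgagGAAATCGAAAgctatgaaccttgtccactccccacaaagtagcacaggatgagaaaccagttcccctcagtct
Oas3: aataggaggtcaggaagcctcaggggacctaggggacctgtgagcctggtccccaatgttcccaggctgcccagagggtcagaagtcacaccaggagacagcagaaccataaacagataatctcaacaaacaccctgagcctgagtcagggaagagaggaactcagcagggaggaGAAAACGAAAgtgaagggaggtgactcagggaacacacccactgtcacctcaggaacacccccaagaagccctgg

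The signalling parts of the interferon pathway differed unevenly. Below the control were 19 of 25 detected genes, 3 of them past 2-fold. Irf7, which amplifies type I interferon responses, was at 507, 416 and 95.7, at least 4.98-fold lower. Stat2 was at 867, 581 and 289 and the interferon-gamma receptor chain Ifngr2 at 387, 252 and 144. Those 2 were already lower at 0.5 µg/ml. Irf1 was at 1388, 997 and 856, Irf9 at 326, 281 and 218 and Ifngr1 at 1394, 1509 and 978. The receptor kinase Jak1 was at 537, 540.4 and 538 and Irf3 at 249, 238 and 250.5, level on all arrays, while Socs2, a feedback inhibitor of cytokine receptors, was at 1181, 1379.8 and 1728.

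Antigen presentation genes were lower without reaching 2-fold in class I. All 16 detected class I genes were below the control, against 47.9% of detected genes, with a median of -0.34. The non-classical gene H2-T23 was at 1954, 1531 and 1120.4 and the immunoproteasome subunit Psmb9 at 1587, 1390.3 and 1047. The peptide transporter Tap1 was at 2288, 2109 and 1777 and the heavy chain H2-K1 at 4019, 4444 and 3556, and B2m, the light chain, was the brightest at 11837, 11575 and 11272. Of 12 interferon-inducible GTPases 11 were below the control, with Gbp2 at 1869.8, 1462 and 1014 and Gbp4 the exception at 1861, 1884 and 1898.

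All 7 detected class II genes were below the control. By measured intensity all 7 were at least 1.5-fold lower (4.49% of detected genes), 3 of them at least 2-fold. With dim values raised, H2-Ob fell short of 1.5-fold, at a bound of 1.06-fold. The bounds of H2-Eb1 and H2-Ab1 were 1.51-fold and 2.61-fold. H2-DMb2, part of the peptide-loading H2-DM pair, was at 348, 257 and 106, and H2-DMa at 466, 306 and 181. The chain gene H2-Ab1 was at 266, 285 and 83.4. The related regulator genes H2-Oa and H2-Ob were at 409, 326 and 219 and at 108, 89.5 and 56.9. The class II regulator Ciita was not detected. Class II genes also mark B cells and myeloid cells, whose marker sums were 386 against 363 and 204 against 229, and whose part in the class II values was not tested.

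Hypoxia-inducible and glucose genes were lower at the high dose and mostly not at 0.5 µg/ml. Of 21 detected hypoxia-inducible genes 19 were below the control and 5 at least 2-fold lower, with a median of -0.51, and at 0.5 µg/ml their median stood at 0.15. Nrn1, which encodes neuritin, was at 1634, 1129 and 335, and Ndrg1 at 462, 504 and 128. Ndrg1's relative Ndrg2 was at 386, 391 and 125. The adenylate kinase Ak4 was at 260.4, 269.5 and 126, and Bnip3 and Bnip3l, receptors for clearing mitochondria, at 926, 1155 and 581 and at 1017, 1036 and 563. For Ndrg1, Ak4, Bnip3 and Bnip3l the 0.5 µg/ml value was above the control, so these were not graded with dose. Hif1a itself was at 2512, 2607 and 1705.

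Of 23 detected glycolysis genes 21 were below the control with a median of -0.25, but 3 were at least 2-fold lower. Besides Aldoc these were the transporters at either end of the pathway, the glucose importer Slc2a3 at 995, 989.6 and 308 and the lactate exporter Slc16a3 at 1261, 1543 and 554. The kinase Pdk1, which restrains pyruvate use, was at 786, 802 and 473 and hexokinase Hk2 at 548, 581 and 425. Among abundant enzymes, Gapdh stood level at 7031, 6808 and 6922 and so did Ldha at 3626, 3941 and 3651. Pkm was slightly lower at 5579, 5743 and 5120, and Aldoa, at 5495, 5712 and 4630, was lower by -0.25, the list median. Glycogen phosphorylase genes outside the list were lower, Pygm at 205, 242 and 53.9 and Pygl at 118, 124 and 46.0. Both were under 102 at the high dose, with bounds of at least 2.01-fold and 1.16-fold. The core letters of the hypoxia response element, ACGTG, were in 15 of 25 windows of the hypoxia list and 19 of 33 of the glycolysis list. They were in 26.9% of windows of detected genes and in 17.2% of those of all genes at least 2-fold lower.

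**Figure D3:**
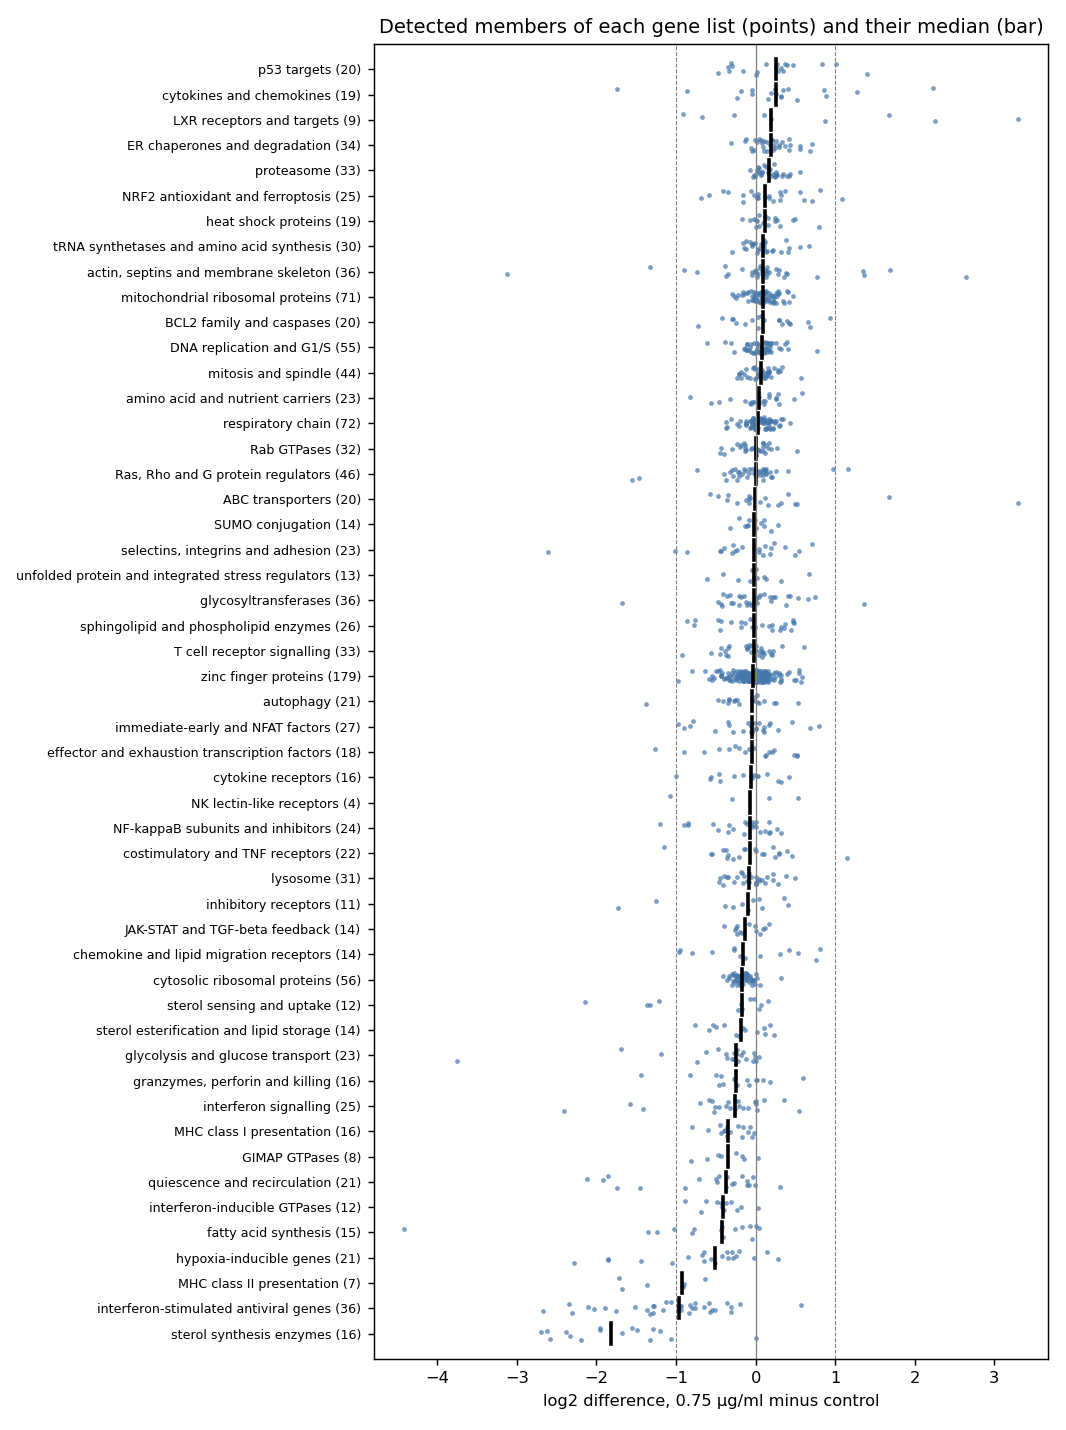
log2 difference of each detected member (points) of each gene list with 4 or more detected members, with the list median as a bar and the number detected in brackets, and dashed lines at 2-fold. Sterol synthesis, antiviral and MHC class II genes have medians under -0.9, and most other lists centre within 0.3 of 0.

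Genes of quiescent and recirculating T cells were lower as a group. Of 21 detected members 20 were below the control and 5 at least 2-fold lower, with a median of -0.37. Klf2, a transcription factor of quiescence and tissue exit, was at 223, 223 and 51.4, and Tsc22d3, a glucocorticoid-induced gene, at 218, 147 and 57.6. Pik3ip1, an inhibitor of PI3 kinase, was at 303, 254 and 83.4, and the Tec-family kinase Txk at 282, 318 and 103. Klf2 and Txk differed at the high dose only. Ccr7, the lymph node homing receptor, was at 2635, 2021 and 1604 and the antiproliferative gene Btg1 at 1598, 1368 and 862, whereas Bcl2 was at 3474, 3895 and 3403 and Foxp1 at 2797, 2499.6 and 2592. Of the 8 GIMAP GTPases, which support lymphocyte survival, 7 were below the control, with Gimap7 at 280.1, 291 and 159 and Gimap1 the exception at 214, 261 and 219.

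Surface receptors of activated T cells showed a few large differences within lists that otherwise centred near 0. Ctla4 was at 1115, 1166 and 335 and Lag3 at 294, 294 and 123, the only 2 of 11 detected inhibitory receptors past 2-fold. Pdcd1 was at 165, 161 and 154, Cd160 at 322, 293 and 414 and Cd5 at 622, 622 and 826. Among 22 detected costimulatory and TNF receptors 2 passed 2-fold in opposite directions. Tnfrsf9, which encodes 4-1BB, was at 3625, 3597 and 1636, 2.22-fold lower, and Tnfrsf8, which encodes CD30, was at 657, 880.3 and 1452, 2.21-fold higher. Tnfrsf8 stood in the order of dose and Tnfrsf9 was lower at the high dose alone. Icos was at 2646, 3095 and 3489, Tnfrsf4 at 1713, 1805 and 1165 and Cd226 at 465, 435 and 641.

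Adhesion and migration genes were mixed. P-selectin (Selp) was at 999, 768 and 164, 6.09-fold lower, and the integrin chain Itga4 at 492, 475 and 244. Cd44, the hyaluronan receptor, was at 1099, 1217 and 1799.6 and Itgb1 at 675, 763 and 952, both higher. Of 14 detected migration receptors none differed 2-fold. Cxcr4 was at 396, 458 and 203 and Gpr18 at 1009.9, 945 and 581, while Cxcr3, the receptor for interferon-inducible chemokines, was at 318, 362 and 557 and Gpr174 at 154, 160.3 and 262.

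Cytotoxic and cytokine genes went both ways. Gzmb was at 7611, 7741 and 8136, Nkg7 at 2835, 2678 and 2863 and Ifng at 333, 346 and 294. The granzyme inhibitor gene Serpinb9 was at 556, 508 and 315 and its relative Serpinb6b at 1574, 1323 and 578, the one gene of 16 detected killing genes past 2-fold. Tnfsf10, the death ligand TRAIL, was at 211, 262 and 319 and Fasl at 193, 210.4 and 145. Of 19 detected cytokines and chemokines 13 were above the control, against 50.5% of detected genes. Penk, which encodes the enkephalin precursor, was at 1314, 909 and 2436, Il24 at 1116, 1049.5 and 1597 and lymphotoxin (Lta) at 1831, 1927 and 2422. Csf2 and Ccl3 reached 102 at the high dose only, at 36.4, 46.8 and 170.1 and at 58.7, 79.3 and 143, and so entered that count through the array where they are high. Ccl5 was at 665, 661 and 367 and Cxcl10, itself induced by interferon, at 105, 85.6 and 31.3. Cxcl10 was close to background on the control array, and its bound was at least 1.03-fold lower. Il9 was not detected, at 25.5, 23.3 and 32.2. The IL-12 receptor chain Il12rb2 was at 2766, 2846 and 1382, while Il12rb1 was at 525, 514 and 579 and Il2rb at 4568, 4688 and 4649.

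T cell receptor signalling and NF-kappaB genes centred near the control as lists. None of 33 detected receptor signalling genes differed 2-fold, and the median was -0.02. Of 24 detected NF-kappaB genes 15 were below the control and 8 above, with a median of -0.07, and Tnfaip3 alone passed 2-fold. The list members Tnfaip3, Nfkbia and Nfkbiz were at 719.9, 565 and 314, at 681, 456 and 378 and at 233, 180.3 and 124, and Bcl3 at 922, 787 and 513. All 4 stood lower at 0.5 µg/ml and lowest at 0.75 µg/ml. Other members were higher, with Tnip2 at 179, 204 and 224 and Nfkbid at 258, 272 and 312. The subunit genes differed in direction, with Rela at 1389.8, 1337 and 1564 and Rel at 645, 603 and 529. Jun was at 370.4, 268 and 188 and the nuclear receptor genes Nr4a2 and Nr4a3 at 375, 311 and 212 and at 979.8, 722 and 567, but Egr2 and Egr3 were higher, at 106, 79.5 and 170.5 and at 108, 121 and 188. Among lineage factors Ikzf2 (Helios) was at 418, 253 and 174, Bhlhe40 at 2157, 2157 and 1152 and Tox at 493, 539.8 and 314, whereas Eomes was at 559, 629.6 and 806, Batf at 255, 275 and 358 and Tbx21 at 240.3, 217 and 227.

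**Figure D4:**
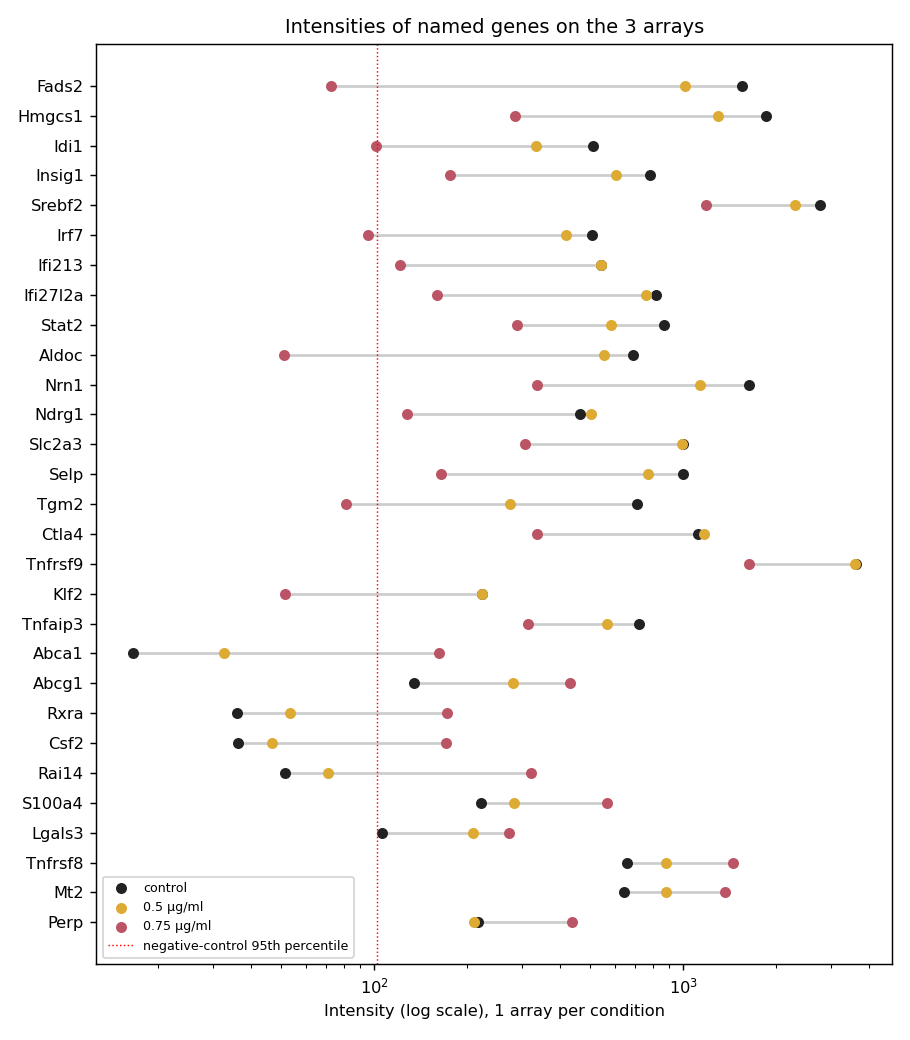
Intensities of 29 named genes on the control (black), 0.5 µg/ml (yellow) and 0.75 µg/ml (red) arrays, on a log scale with the negative controls' 95th percentile of 102 dotted. Hmgcs1, Tgm2 and Abcg1 step with dose, and Ndrg1, Klf2, Ctla4 and Perp differ at 0.75 µg/ml with the 0.5 µg/ml point on or near the control.

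Many of the lower genes belonged to none of the lists, 58 of 134 in all. Signalling genes among them were Arrb1 (beta-arrestin) at 327, 331 and 75.5, the small GTPase Rras at 619, 443 and 196 and Tagap, a GTPase-activating protein of T cells, at 659, 450.3 and 249.9. Rasa3, which inactivates Ras and Rap and is in the regulator list, was at 469, 492 and 160.0. The phosphodiesterase Pde4b, which breaks down cyclic AMP, was at 331, 336 and 165. Ncf1, a subunit of the phagocyte NADPH oxidase, was at 2115, 1568 and 832, and Plaur, the urokinase receptor, at 208, 131 and 42.8. Rras and Plaur stepped down with dose and Arrb1, Rasa3 and Pde4b did not.

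Others were the MYC antagonist Mxd1 at 456, 363 and 186, the ribosomal protein paralogue Rpl22l1 at 438, 416 and 191, Vps37b, of the ESCRT membrane-sorting complex, at 691, 576 and 269 and the endocytic receptor Ly75 at 338, 255 and 154. Cytoskeletal genes included Actn1 (alpha-actinin, in the cytoskeleton list) at 392, 272 and 156, Cnn3 (calponin) at 451, 338 and 184 and Nckap1, of the WAVE complex, at 230.1, 195 and 101. Metabolic genes included Rdh11, a retinol dehydrogenase, at 278, 224 and 115, Fah, of tyrosine breakdown, at 519, 419 and 239 and the acyl-CoA synthetase Acsf2 at 210.1, 206 and 99.1. Tgm2, a protein cross-linking enzyme kept in the cytoskeleton list, was at 709, 276 and 81.2, at least 6.97-fold lower, with the 0.5 µg/ml value already far from the control.

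The 24 higher genes were of mixed kinds. Rai14, an actin-bundling protein gene, was at 51.4, 71.1 and 322, and Sulf2, which edits heparan sulfate, at 123, 92.1 and 316. S100a4 was at 221, 283 and 565 and its relative S100a6, short of 2-fold, at 772, 805 and 1320.5, both calcium-binding proteins, and Lgals3, which binds galactosides, at 106, 209 and 273. The elongation factor Ell2 was at 90.7, 126 and 232, the endotoxin coreceptor Ly96 at 104, 119 and 221, the aldo-keto reductase Akr1c13 at 109, 122 and 264 and Eps8, an actin-capping adaptor, at 96.3, 119 and 211. The metal-binding proteins Mt2 and Mt1 were at 645, 877 and 1367 and at 1720.2, 1935 and 2535, and only Mt2 passed 2-fold. S100a4, Lgals3, Ell2, Mt1 and Mt2 stood in the order of dose, and Sulf2 did not. Of the p53 targets Perp was at 216, 210.0 and 437, Phlda3 at 111, 94.7 and 199 and Eda2r, detected at the high dose only, at 47.8, 39.1 and 126, while Sesn1 was at 248, 189 and 178 and Btg2 at 268, 247 and 211.

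Protein folding and turnover genes lay slightly above the control. Of 34 detected genes of the endoplasmic reticulum 27 were above the control and none differed 2-fold, with a median of 0.19, and 50.5% of all detected genes were above. Pdia6, a disulfide isomerase, was at 1103, 1425 and 1628, Creld2 at 253, 250.2 and 371 and the ubiquitin ligase Syvn1 at 282, 304 and 381. Sdf2l1, part of a chaperone complex, was at 539.9, 603 and 879, and Edem1, which marks misfolded glycoproteins, was lower at 1945, 1818 and 1576. Of 33 detected proteasome subunits 29 were above the control, with a median of 0.17, quartiles of 0.05 and 0.26, and Psmd6 at 386, 462 and 567. In the antioxidant list 17 of 25 were above, with Txnrd1, thioredoxin reductase, at 749.9, 822 and 1222, Ftl1, the ferritin light chain, at 1136, 1185 and 1737 and Gclm, of glutathione synthesis, at 211, 229 and 371. Ddit3, the CHOP gene, had 2 detected probe sets that differed in sign, at 330, 304 and 282 and at 91.8, 127 and 133, and no direction is given for it.

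The element for stress of the endoplasmic reticulum, written CCAAT, any 9 bases, CCACG, which contains a CCAAT box, was in 8 of 36 windows of that list, in 0.132% of windows of detected genes and in 0 of 151 windows of genes at least 2-fold lower. The genes with it were Hspa5, Pdia6, Creld2, Syvn1, Calr, Canx, Hsp90b1 and Dnajc3, each 0.18 to 0.56 above the control. The 250 bases before the start are shown for Hspa5, the main chaperone, at 3633, 3939 and 4709, and Pdia6, with the largest difference of these genes, with the element in capitals. Both are on the plus strand, at chr2:34771840-34772089 and chr12:17266339-17266588.
Hspa5: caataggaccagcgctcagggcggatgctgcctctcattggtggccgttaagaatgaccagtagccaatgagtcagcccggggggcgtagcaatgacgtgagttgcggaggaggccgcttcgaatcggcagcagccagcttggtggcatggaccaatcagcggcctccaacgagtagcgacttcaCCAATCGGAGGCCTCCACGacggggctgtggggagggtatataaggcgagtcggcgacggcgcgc
Pdia6: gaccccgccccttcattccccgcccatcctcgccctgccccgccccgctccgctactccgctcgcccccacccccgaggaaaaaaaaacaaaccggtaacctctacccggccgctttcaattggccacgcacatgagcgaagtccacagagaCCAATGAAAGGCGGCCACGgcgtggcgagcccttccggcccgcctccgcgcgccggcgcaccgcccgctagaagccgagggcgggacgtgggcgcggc

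**Figure D5:**
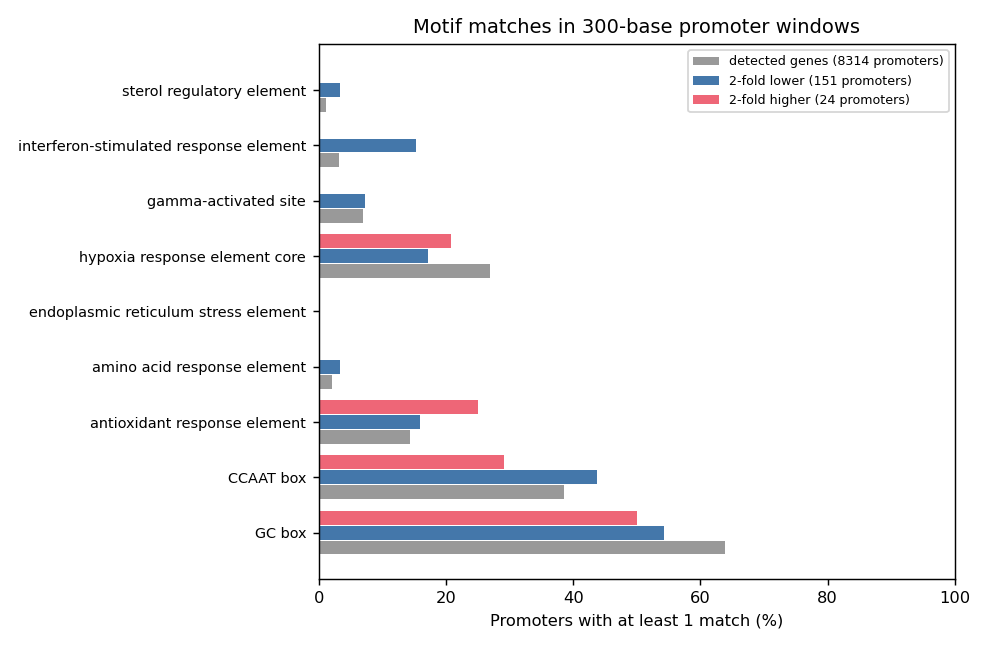
Share of RefSeq promoter windows of 300 bases with at least 1 match to each motif on either strand, for detected genes (grey), genes at least 2-fold lower (blue) and genes at least 2-fold higher (red). The interferon-stimulated response element stands at 15.2% for lower genes and 3.2% for detected genes, and the other bars differ less in ratio or rest on few windows.

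Growth and proliferation genes stayed close to the control. Of 44 detected mitosis genes none differed 1.5-fold, with a median of 0.07 and Mki67 at 2033, 2156 and 2085. Of 55 detected replication genes 38 were above the control, Rrm2, of nucleotide supply, at 1967, 2247 and 2609, E2f7 at 181, 204 and 307 and the cell cycle inhibitor Cdkn1b, lower, at 621, 618 and 406. Cytosolic ribosomal protein genes were mostly below the control and mitochondrial ones slightly above. Of 56 detected cytosolic ones 53 were below the control (median -0.17), and of 71 mitochondrial ones 49 were above (median 0.09). Of all detected genes 47.9% were below and 50.5% above. The positive controls' median was 0.06, close to the mitochondrial value. The quartiles of the cytosolic genes were -0.24 and -0.10. The respiratory chain (72 detected, median 0.03), Rab GTPases (32, 0.00) and SUMO genes (14, -0.01) centred on the control, as did 179 numbered zinc finger genes at -0.03.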

How the data were processed

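RNA from each culture was isolated with Trizol and biotin-labelled for an expression array, per the labels' protocols. The deposited table gives 1 linear intensity per probe set and array, per the values themselves. How the authors corrected background and normalized these intensities is not given in the sources used. Of 22206 transcript probe sets 19572 had 1 symbol in the platform annotation, which can be old, and 2634 are unnamed here. The brightest of several probe sets stood for each of 55 genes, and all 19505 genes matched GRCm38.p6 by identifier. In 4 of the 10 genes with more than 1 detected probe set, those probe sets differed in sign.

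Log2 was taken with no further normalization, and a gene was counted from a 2-fold difference. Of 58 gene lists, older symbols were matched through synonyms. The list of clustered histones matched no symbol and is not reported. Genes could be named if still 2-fold different after values under 102 were raised to it, if among the 5 most different detected members of a list, or if in a fixed set; others were chosen after their values were seen, mostly as examples of level or opposite members. Members, lists and motifs were chosen with earlier results of these data known, and the lists searched for motifs and the sequences shown were chosen after list and motif values were seen. In place of replicate spread, the positive controls' SD decided whether a value moved under an alternative, which is a wide measure for a list median. The steps were checked on simulated data, and used Python 3.11.15, numpy 2.4.6, pandas 2.3.3 and matplotlib 3.10.9. The simulated differences were larger than 2-fold, lay in bright genes and had less noise than the positive controls. Dim genes and differences near 2-fold were thus not checked. Alternatives covered dim values, normalization, detection, probe sets and the fold.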

Additional observations from a re-analysis of the deposited data

How the results depend on the processing

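The number of lower genes, 134, was 129 after quantile normalization, 134 after median centring or with each array's own detection level, 154 after subtraction of the negative controls' median, 98 with dim values raised and 135 over every probe set. Median centring took only 0.002 off each difference, so it could hardly change the count. It was 72 with detection on both arrays, 209 with no detection filter, 32 with the 99th percentile of the negative controls as the level and 356 at 1.5-fold. The number of higher genes, 24, was 15 with dim values raised, 38 after subtraction, 11 with detection on both arrays, 82 with no filter, 2 with the 99th percentile and 147 at 1.5-fold. Detection rules change how many genes enter, and the cause of the other changes was not tested. No gene named by the rule above and at least 2-fold different changed sign under an alternative in which it was detected. Genes named outside that rule, such as Idh1, Acat3, Pygl and Cxcl10, were not run under the alternatives. Detection rules and raised dim values cannot turn such a sign, and named genes were not compared over every probe set. No stability is read from this. Quantile normalization turned the sign of 4 list medians, all within 0.05 of 0: ABC transporters, GTPase regulators, immediate-early factors and stress regulators. With detection on both arrays the sterol synthesis median was -1.53 in place of -1.82 and the LXR median -0.08 in place of 0.20. With no filter the migration receptor median was 0.06 in place of -0.16, and with the 99th percentile the sphingolipid median was 0.21 in place of -0.02; no direction is drawn for these lists beyond sterol synthesis. No paired analysis was possible because each condition had 1 array. Dim signal limits the rest: 11578 genes were under background on both arrays.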
